A study of Bos taurus with 11 samples.

Results

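FNDC4, ISM1 and FAM19A5 encode secreted proteins, and their liver transcripts were described in cows in mild (MNEB) and severe (SNEB) negative energy balance. The 3 genes, of 21996 with counts, were chosen on the difference between the groups, as secreted factors with more reads in SNEB cows. Their levels and fold changes in that contrast are therefore descriptions without a test. The cows were multiparous Holstein-Friesians, sampled at about 14 d after calving. The 5 MNEB cows were fed to appetite, and the 6 SNEB cows received a restricted diet and were milked more often, so that diet and milking cannot be told apart. Cows had been kept for sequencing because their energy balance was extreme for their group. Each value comes from polyA RNA of bulk liver, in which fewer cells of a type and less RNA per cell cannot be told apart.

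FNDC4 is a membrane protein with a fibronectin type III domain, closely related to the irisin precursor FNDC5. Its extracellular part is shed, is released by the liver among other tissues, and acts on adipocytes and macrophages, with GPR116 as a receptor. ISM1 (isthmin) carries a thrombospondin repeat and an AMOP domain. It is known as an inhibitor of angiogenesis and as an adipokine that raises glucose uptake in fat and muscle and lowers lipid synthesis in hepatocytes. FAM19A5, now named TAFA5, is a small chemokine-like protein that is abundant in brain, is also made by fat, and binds the sphingosine phosphate receptor S1PR2 on vascular smooth muscle cells.

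Reads on genes summed to between 1774011 and 4005322 per MNEB cow and between 1869837 and 6852142 per SNEB cow. Levels are reads of a gene per 1000000 reads on genes (CPM) after TMM scaling, a correction for differences in library composition. All 3 genes passed the filter of at least 5 reads in at least 1 cow, as did 13960 genes in all. CPM is not corrected for transcript length, so levels were compared between cows and not between genes. Intervals of single cows are exact Poisson 95% intervals of the read count and cover counting error only.

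FNDC4 (ENSBTAG00000018164) had 32.6, 29.6, 21.9, 35.8 and 21.2 CPM in MNEB cows 1 to 5. In SNEB cows 1 to 6 it had 103, 88.5, 128, 114, 60.8 and 85.4 CPM. The groups did not overlap, and the lowest SNEB cow, SNEB5, was still 1.70-fold above the highest MNEB cow, MNEB4. SNEB3 was the highest cow. The means were 28.2 ± 6.48 CPM (SD, n = 5) and 96.6 ± 23.7 CPM (SD, n = 6), and the log2 fold change was 1.76 (SE 0.21). Relative to the mean, the cows of both groups were spread alike, with a coefficient of variation of 23.0% in MNEB and 24.5% in SNEB. FNDC4 had at least 37 reads in every cow, and counting error alone gives coefficients of 12% and 5.71%.

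ISM1 (ENSBTAG00000017188) had 22.1, 13.5, 10.1, 27.2 and 30.1 CPM in MNEB cows 1 to 5. In SNEB cows 1 to 6 it had 157, 91.0, 163, 71.6, 59.6 and 99.7 CPM. These groups did not overlap either, and SNEB5, again the lowest SNEB cow, stood 1.98-fold above MNEB5, the highest MNEB cow. SNEB1 and SNEB3 lay apart from the other SNEB cows at the upper end. The means were 20.6 ± 8.61 CPM (SD, n = 5) and 107 ± 43.4 CPM (SD, n = 6), with a log2 fold change of 2.32 (SE 0.32). Its spread between cows was wide in both groups, with coefficients of variation of 41.8% and 40.6% against 16.0% and 5.49% from counting error. The lowest value, in MNEB3, rested on 17 reads (95% interval 9.90 to 27.2 reads).

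FAM19A5 (ENSBTAG00000022986) was at the lowest read numbers, with 16.2, 15.1, 10.1, 7.16 and 8.09 CPM in MNEB cows 1 to 5. In SNEB cows 1 to 6 it had 18.4, 27.5, 15.6, 30.6, 32.4 and 39.9 CPM. The groups overlapped. SNEB3 lay below MNEB1, SNEB1 lay little above it, and the other SNEB cows were well above all MNEB cows. The means were 11.3 ± 4.09 CPM (SD, n = 5) and 27.4 ± 9.10 CPM (SD, n = 6), and the log2 fold change was 1.29 (SE 0.29). SNEB3 had 29 reads (95% interval 10.42 to 22.3 CPM) and MNEB1 had 66 (12.5 to 20.6 CPM). These intervals overlapped, so the order of the 2 cows was not resolved at this depth.

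**Figure D1:**
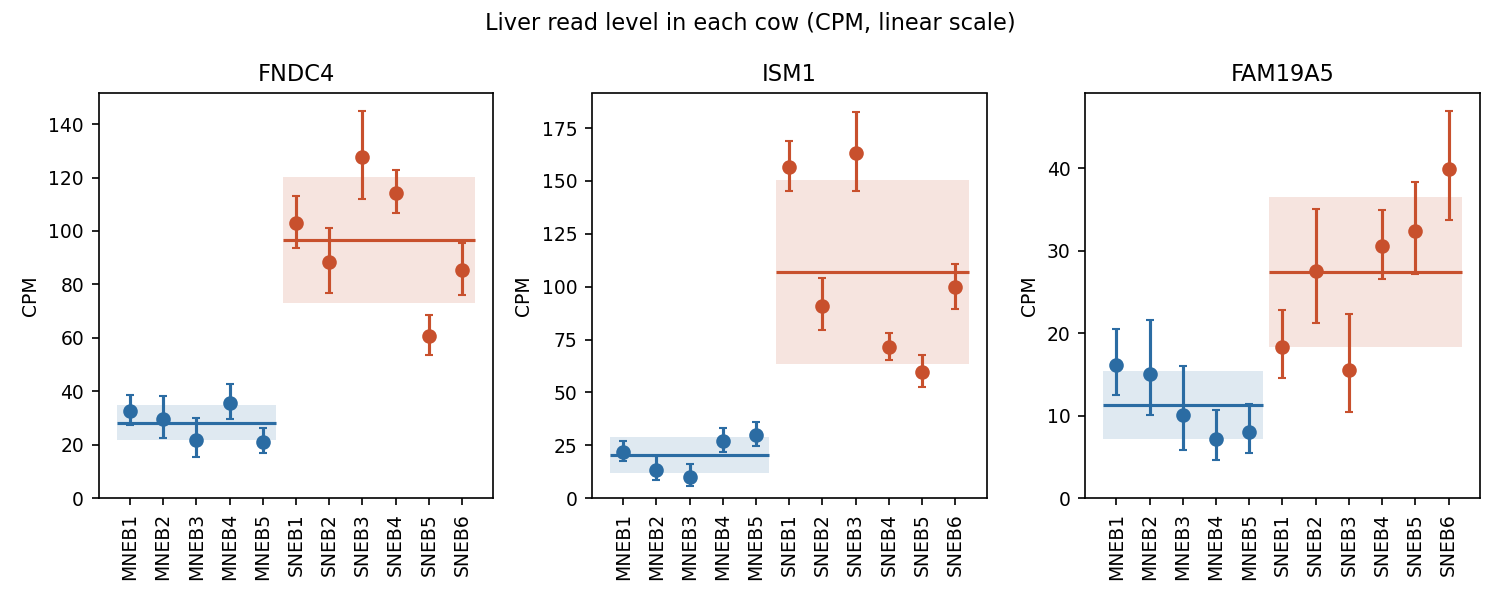
CPM of FNDC4, ISM1 and FAM19A5 in each cow (blue MNEB, red SNEB) on linear axes from 0. Bars are 95% Poisson intervals of the read count, lines are group means and shaded bands are 1 SD. The SNEB cows stand above all MNEB cows for FNDC4 and ISM1, whereas SNEB1 and SNEB3 are level with the upper MNEB cows for FAM19A5.

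By size of the fold change the order was ISM1, FNDC4 and FAM19A5, at ranks 48, 98 and 216 among the 13960 genes. The intervals of 1 SE around the folds of FNDC4 (2.94 to 3.92) and FAM19A5 (2.0 to 2.99) overlapped, and that of ISM1 (4.0 to 6.24) lay just above that of FNDC4. Read ratios within a cow need no scaling, but they hold no fold change and so cannot show this order cow by cow. ISM1 reads per FNDC4 read ran from 0.456 to 1.42 in MNEB and from 0.63 to 1.52 in SNEB cows. FAM19A5 reads per FNDC4 read ran from 0.200 to 0.509 in MNEB and from 0.122 to 0.533 in SNEB cows. The ratio of FAM19A5 to ISM1 varied most, from 0.264 to 1.12 in MNEB and from 0.0954 in SNEB3 to 0.544 in SNEB5. The ranges of all 3 ratios overlapped between the groups, and whether the fold changes differed between the genes was not tested.

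By estimate, cows of 1 group varied less in FNDC4 than in ISM1 and FAM19A5, a difference that was not tested. The biological coefficient of variation in the edgeR fit was 22.8% for FNDC4, 34.4% for ISM1 and 31.2% for FAM19A5. It measures the spread between cows beyond counting error, and differences between lanes and flow cells enter it. Of the genes within 0.5 log2 CPM of the same level, 69.0% had a lower dispersion than FNDC4 (of 2413 genes), 95.7% than ISM1 (of 2322) and 78.1% than FAM19A5 (of 1748). ISM1 was thus among the more variable genes of its level, and FNDC4 was nearer the middle.

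Over all genes, edgeR's quasi-likelihood test called 46 higher (0.33% of those tested) and 30 lower (0.215%) in SNEB cows at a Benjamini-Hochberg adjusted p under 0.1. All 3 members were among the 46, and 2 of them, FNDC4 and ISM1, were among the 107 genes (0.766%) with every SNEB cow above every MNEB cow. Since the genes were chosen by this contrast, nothing is read from these counts. Calls of the members in other fits are no test of them either, and show only how near a gene lay to the threshold. FAM19A5 was among the genes called higher in only 3 of the 11 fits that left out 1 cow. Those were the fits without MNEB1, SNEB1 or SNEB3. In the 10 other planned settings it was called in 5. It was not called with the first lane of each cow, after thinning, with the flow cells or the cow number as a term, or without the cows of flow cell A, where its log2 fold change lay between 1.12 and 1.28. Its log2 fold change lay between 1.15 (without SNEB6) and 1.49 (without MNEB1) when 1 cow was left out. The corresponding ranges were 1.67 to 1.87 for FNDC4 and 2.17 to 2.49 for ISM1.

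**Figure D2:**
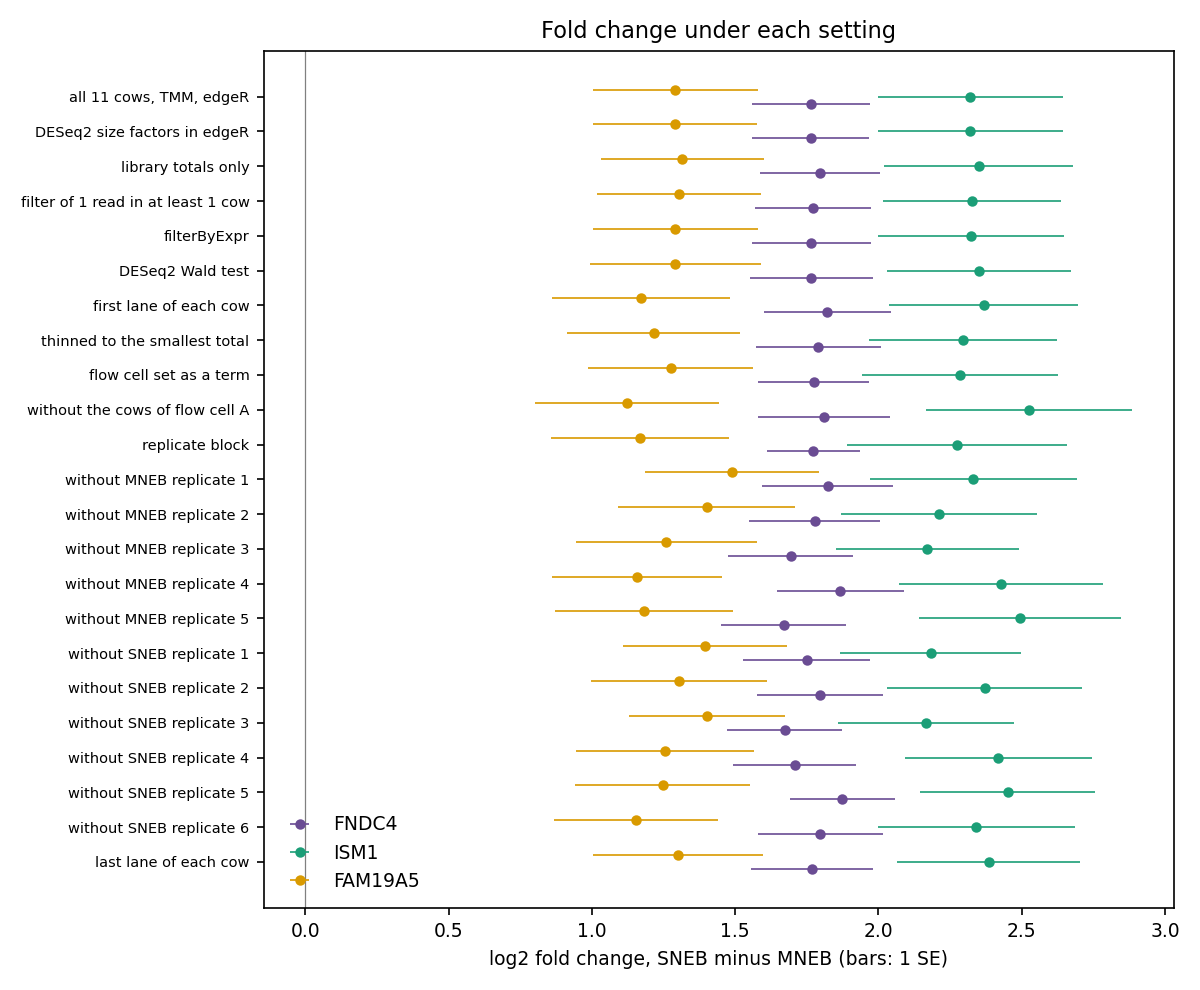
Log2 fold change of each gene, SNEB minus MNEB, with all cows and under each other setting. Points are estimates, bars are 1 SE and the vertical line marks 0. The estimates keep the order ISM1, FNDC4, FAM19A5 in every setting shown, but the settings share all or most of their cows.

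The libraries were run on 3 flow cells, called A, B and C here, and cows with the same number in both groups had been run on the same ones. Each same-numbered pair thus gives a difference within flow cells. For FNDC4 these folds were 3.16, 2.99, 5.84, 3.19 and 2.86 in pairs 1 to 5. For ISM1 they were 7.10, 6.73, 16.2, 2.63 and 1.98, and for FAM19A5 they were 1.14, 1.83, 1.55, 4.27 and 4.01. Every pair had the higher value in the SNEB cow. The order of the pairs differed, with ISM1 having its smaller folds in pairs 4 and 5, where FAM19A5 had its larger ones. Pairs 1 to 3 kept the order ISM1, FNDC4, FAM19A5 of the group fold changes. In pairs 4 and 5 it was reversed, with FAM19A5 highest and ISM1 lowest.

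Within flow cell B, with 3 MNEB and 4 SNEB cows, FNDC4 ran from 18.8 to 29.0 RPM (reads per 1000000 gene reads of the lanes on that flow cell, without TMM scaling) in MNEB and from 60.2 to 127 in SNEB cows. Within flow cell C, also with 3 and 4 cows, it ran from 23.3 to 37.4 and from 62.6 to 104. The groups were apart on both flow cells, and so they were for ISM1, with at most 30.8 RPM in an MNEB cow and at least 56.6 in an SNEB cow. For FAM19A5 the groups overlapped on B and not on C. On B it ran from 7.19 to 15 in MNEB and from 11.9 to 33.4 in SNEB cows, with SNEB1 below MNEB1. On C it ran from 8.86 to 18.0 and from 26.0 to 47.7. Of the 11 cows described here, flow cell A held only MNEB4 and SNEB4, with 7.12 and 30.9 RPM for FAM19A5.

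**Figure D3:**
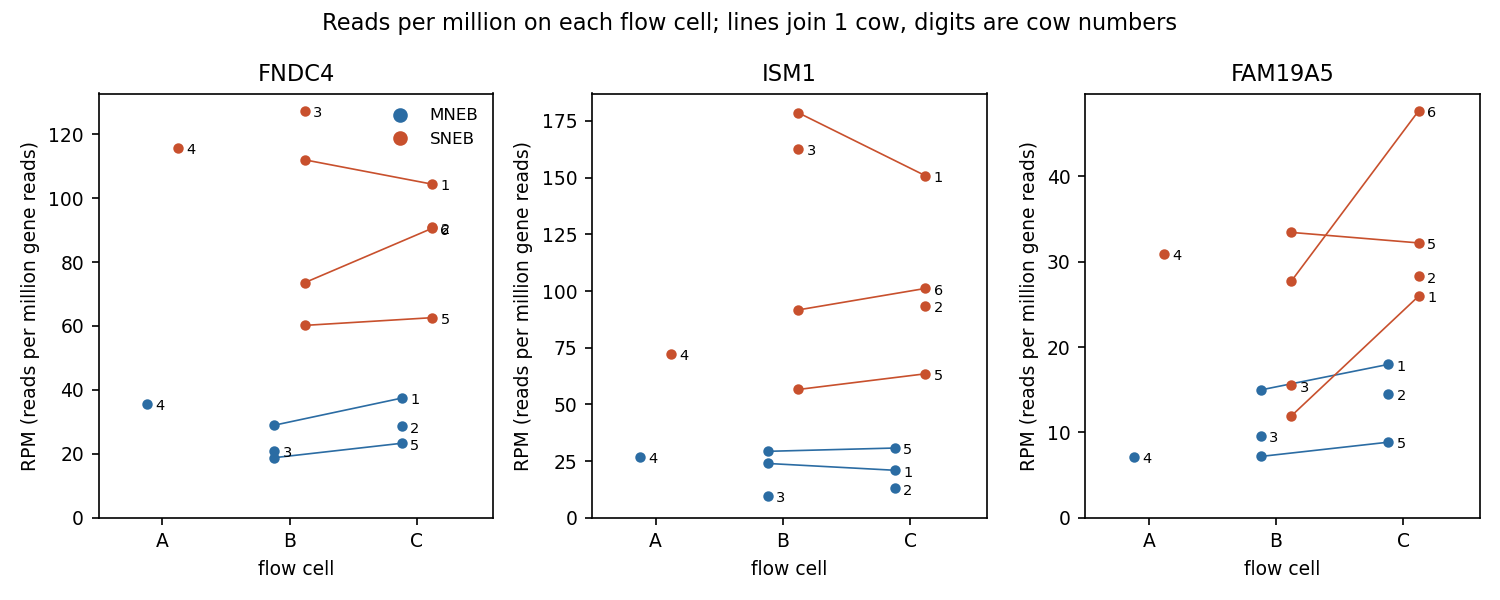
RPM of each gene by flow cell (blue MNEB, red SNEB), on linear axes from 0. Lines join the values of 1 cow on flow cells B and C, and digits are cow numbers. FAM19A5 in SNEB1 and SNEB6 is lower on B than on C, and the groups overlap only for FAM19A5 on B.

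Lanes of 1 cow are repeat measurements of its library. Their sum entered the choice of the genes, but the differences between them did not. In 7 cows with more than 1 lane, each pair of lanes was compared by a two-sided Fisher's exact test of the gene's reads against all other gene reads, in 27 tests over the 3 genes. For FNDC4 and ISM1 lanes differed by at most 1.29-fold and 1.22-fold, and none of the 18 tests had an adjusted p under 0.1, although 3 had an unadjusted p under 0.05. For FAM19A5 the lanes of SNEB1 held 24 reads on B and 57 on C, or 11.9 and 26.0 RPM (Fisher's exact test, p = 0.00114, adjusted p = 0.0263). Those of SNEB6 held 46 and 99 reads, or 27.7 and 47.7 RPM (Fisher's exact test, p = 0.00195, adjusted p = 0.0263). In SNEB5, run on the same flow cells, the lanes held 65 and 71 reads and differed by 1.04-fold. In MNEB1 and MNEB5 the lanes differed by 1.2-fold and 1.23-fold. A difference between lanes was common among genes. With at least 20 reads in both lanes together, 27.2% of 11250 genes in SNEB1 and 32.2% of 10676 in SNEB6 had an adjusted p under 0.1 by Fisher's exact test over genes, a count chosen after the lanes of FAM19A5 had been seen. In the other cows run on B and C the share was 34.6% (MNEB1), 20.7% (SNEB5) and 16.2% (MNEB5). The part of the flow cell in the position of SNEB1 was not tested. Its FAM19A5 level on flow cell C alone, 26.0 RPM, was above every MNEB cow. Without its lane on B, the log2 fold change of FAM19A5 was 1.35 (SE 0.27), against 1.29 with all lanes, a setting also added after the data were seen. It left out only the lower lane of SNEB1 and kept the lower lane of SNEB6, so nothing is read from the rise. The fit without SNEB6 gave 1.15 (SE 0.29).

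Whether the members varied together among SNEB cows is a separate question from the one that chose them. SNEB1 and SNEB3 had the highest ISM1 and the lowest FAM19A5, whereas SNEB5 had the lowest FNDC4 and ISM1 and the second highest FAM19A5. On log2 CPM of the 6 SNEB cows, Pearson's r of ISM1 and FAM19A5 was -0.79 (two-sided exact permutation test, p = 0.0681, adjusted p = 0.185). Spearman's rho was -0.66 (exact permutation p = 0.175, adjusted p = 0.242). FNDC4 and FAM19A5 gave r = -0.63 (exact permutation p = 0.185, adjusted p = 0.185) and rho = -0.77 (exact permutation p = 0.103, adjusted p = 0.242). FNDC4 and ISM1 gave r = 0.67 (exact permutation p = 0.143, adjusted p = 0.185) and rho = 0.60 (exact permutation p = 0.242, adjusted p = 0.242). None of the 3 relations passed the adjustment over 3 at an adjusted p under 0.05, the level used for correlations.

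Without SNEB1 and SNEB3, the cows farthest from the median of ISM1, r of ISM1 and FAM19A5 was 0.29. Without SNEB3 and SNEB5, the farthest for FNDC4, r of FNDC4 was -0.14 with ISM1 and -0.42 with FAM19A5. Leaving out the extreme cows of a gene narrows its range, so r of the remaining 4 cows does not show what a relation rested on. Single cows also moved the correlations. Those fits were added after the data were seen and adjusted over the 3 relations only, not over the cows left out. Without SNEB4, which had high FNDC4 and low ISM1, r of FNDC4 and ISM1 in the other 5 cows was 0.96 (exact permutation test, adjusted p = 0.05), and without SNEB5 it was 0.36 (exact permutation test, adjusted p = 0.517). Without SNEB3, r of FNDC4 and FAM19A5 was -0.40 (exact permutation test, adjusted p = 0.475). For ISM1 and FAM19A5, r was -0.73 without SNEB1 (exact permutation test, adjusted p = 0.242) and -0.66 without SNEB3 (exact permutation test, adjusted p = 0.475). The lanes mattered as well. With only the first lane of each cow, r of ISM1 and FAM19A5 was -0.94 (exact permutation test, adjusted p = 0.00833), and with only the last lane, a setting added after the data were seen, it was -0.56 (exact permutation test, adjusted p = 0.378). For SNEB1 and SNEB6, the first lane was on flow cell B and the last on C. Without SNEB6, among the added fits with 1 cow left out, r of the other 5 cows was -0.98 (exact permutation test, adjusted p = 0.025). No flow cell held more than 4 SNEB cows, and no correlation was computed within one. Among the 5 MNEB cows, for which no correlation was computed, MNEB4 and MNEB5 had the highest ISM1 and the lowest FAM19A5.

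**Figure D4:**
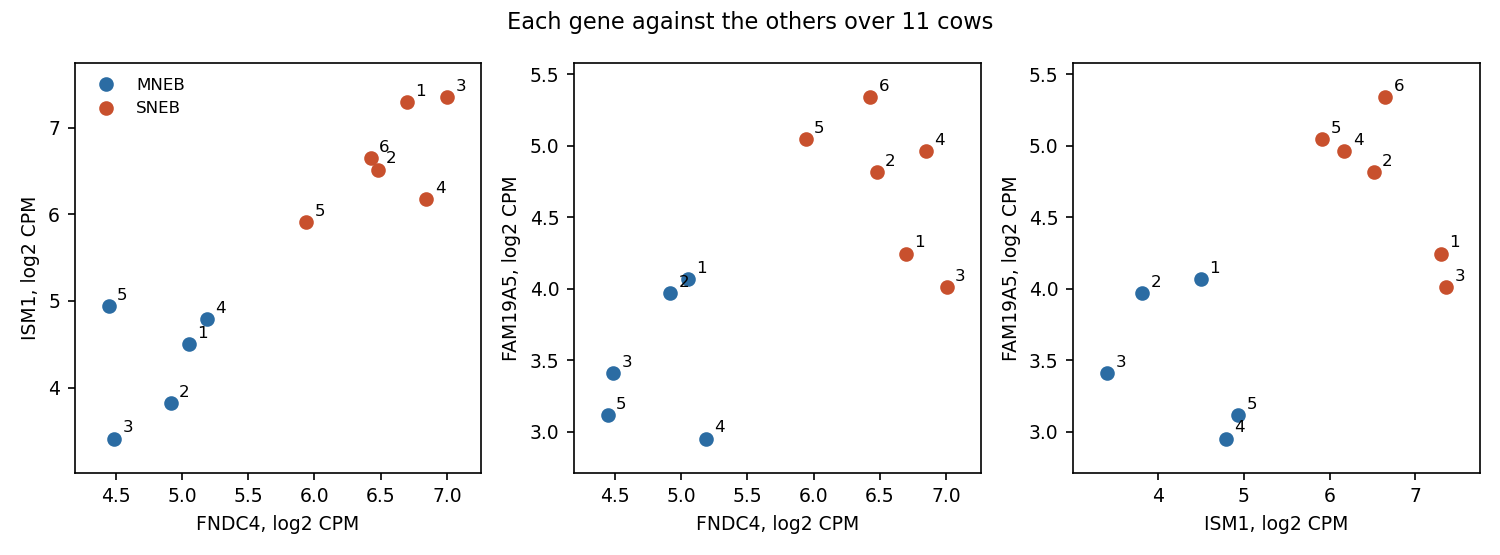
Log2 CPM of each gene against each other gene, 1 point per cow (blue MNEB, red SNEB), with cow numbers. SNEB1 and SNEB3 lie at high ISM1 and low FAM19A5, apart from the other 4 SNEB cows.

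The genes most alike in pattern were ranked by r of log2 CPM among 11847 genes with at least 10 reads per cow on average, of which 367 could be named. The names came from the study's list of genes that differed between these groups. Named neighbours were thus selected beforehand for that difference. These are descriptions without a p, and over all 11 cows r takes in the difference between the groups. For FNDC4 the closest named genes were ISM1 (r = 0.92), the steroidogenic enzyme CYP11A1 (0.91), GCKR (0.90), C8orf22 (0.90) and the carnitine transporter SLC22A5 (0.90). ISM1 ranked first of all genes for FNDC4, named or not. For ISM1 they were SLC22A5 (0.92), FNDC4 (0.92), CYP11A1 (0.91), C6orf154 (0.91) and TMEM41A (0.90). FAM19A5 had other neighbours, namely the calpain CAPN11 (0.96), the asparaginase ASPG (0.93), BCR (0.93), APCDD1 (0.93), an inhibitor of Wnt signalling, and HSF2BP (0.91). FNDC4 stood only at rank 392 for FAM19A5 (r = 0.70), and ISM1 at rank 1053 (0.57).

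After each group's mean was subtracted, the resemblance of FNDC4 and ISM1 fell to r = 0.49, rank 419 for FNDC4. ISM1 and FAM19A5 then ran opposite, with r = -0.62, which put FAM19A5 at rank 11517 of 11846 genes for ISM1. The closest named genes were then DTX1 (0.77), GABRR2 (0.71), DNER (0.64), ZNF608 (0.59) and AK4 (0.57) for FNDC4. For ISM1 they were KIAA0753 (0.83), the receptor tyrosine kinase ROR2 (0.83), DTX1 (0.76), the secretin receptor SCTR (0.73) and NUMB (0.73). DTX1, a ubiquitin ligase of the Notch pathway, was the named gene shared by both. For FAM19A5, CAPN11 (0.93), BCR (0.90) and APCDD1 (0.87) remained among the 5 closest named genes, with SHROOM1 (0.93) and the mitochondrial carrier SLC25A25 (0.88). Among all genes, these named genes stood at ranks 17 to 196 for FNDC4, 10 to 78 for ISM1 and 2 to 37 for FAM19A5. Genes without a name were closer.

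In the RefSeq annotation of a later assembly, ARS-UCD2.0, FNDC4 lies between GCKR and IFT172 and overlaps neither. GCKR encodes the glucokinase regulatory protein, which binds and inhibits glucokinase in hepatocytes. It was far lower in reads, with between 1 and 9 in MNEB cows and between 11 and 30 in SNEB cows, or 2.21, 0.520, 1.18, 0.895 and 0.253 CPM in MNEB cows 1 to 5. In SNEB cows its lowest, median and highest values were 4.13, 4.56 and 16.1 CPM, and SNEB3, the highest cow for FNDC4, was also the highest for GCKR. The log2 fold change of GCKR was 2.57 (SE 0.54, edgeR adjusted p = 0.0667). It lost its call in 5 of the 11 fits without 1 cow, those without any of MNEB2 to MNEB5 or without SNEB1, with adjusted p up to 0.173, and in 2 of the 10 other settings (first lane of each cow, 0.126, and without the cows of flow cell A, 0.193). In these 7 fits its log2 fold change lay between 2.27 and 2.63. Over all fits without 1 cow it lay between 2.17 (without SNEB3, edgeR adjusted p = 0.055) and 3.21 (without MNEB1, edgeR adjusted p = 0.039). Among the 6 SNEB cows, r of FNDC4 and GCKR was 0.60 (exact permutation p = 0.219) and rho 0.54 (exact permutation p = 0.297), a relation chosen after the values were seen. Without SNEB3 and SNEB5, r was 0.23. A long non-coding RNA gene overlaps ISM1 and another overlaps FAM19A5, and the strand setting of the counting is not given in the sources used here. Reads of these overlapping transcripts could not be told apart, so the counts of ISM1 and FAM19A5 are uncertain to that extent.

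Among 36 other secreted regulators of metabolism and growth, 6 could be named in the count data. Of these, 2 rose, 2 fell and 2 did not pass the test, beside 0.33% of all genes called higher and 0.215% called lower. Their median log2 fold change was 0.17, against -0.01 over all genes. The names came from a list that the study had selected on these cows, so the counts are not independent evidence of a direction. FGF21, a fasting hormone of the liver, rose from 67.1 ± 22.6 CPM (SD, n = 5) to 167 ± 21.8 CPM (SD, n = 6) without overlap of the groups (log2 fold change 1.31, SE 0.20, edgeR adjusted p = 0.00953). Its order among SNEB cows was not that of the members. Its relative spread there was narrow, at 13.0% against 24.5%, 40.6% and 33.2% for FNDC4, ISM1 and FAM19A5. In MNEB cows it was not, at 33.7% against 23.0%, 41.8% and 36.2%. ANGPTL4, an inhibitor of lipoprotein lipase, rose by 1.38 on the log2 scale (SE 0.27, edgeR adjusted p = 0.0456), also without overlap.

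The growth factor IGF1 fell by 2.40 on the log2 scale (SE 0.39, edgeR adjusted p = 0.0142), from 40.3 ± 12.9 to 7.86 ± 6.18 CPM. IGFALS, the carrier subunit that holds IGF1 in the circulation, fell by 2.34 (SE 0.52, edgeR adjusted p = 0.0956). Every SNEB cow was below every MNEB cow for both genes. The call of IGFALS was lost in 8 of 11 fits without 1 cow, with edgeR adjusted p up to 0.198 (without SNEB6), and with library totals as the only scaling (edgeR adjusted p = 0.101). That of ANGPTL4 was lost without MNEB4, MNEB5 or SNEB6 (adjusted p up to 0.147). Without the cows of flow cell A both lost their call (adjusted p = 0.171 and 0.216). Where the calls were lost, the log2 fold changes lay between -2.47 and -1.99 for IGFALS and between 1.29 and 1.32 for ANGPTL4. In contrast, FGF21 and IGF1 were called in all 11 fits without 1 cow and in the 10 other settings. The hepatic secreted protein FETUB had a log2 fold change of -0.48 (edgeR adjusted p = 0.646), and the glycoprotein GPNMB one of 0.81 (edgeR adjusted p = 0.795).

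**Figure D5:**
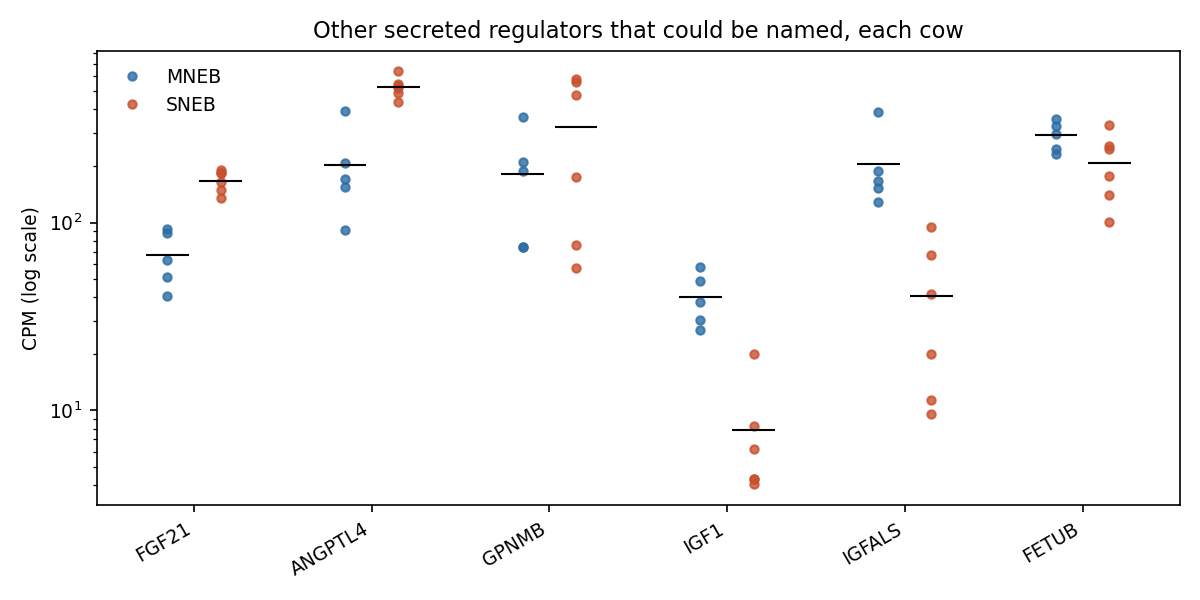
CPM of the 6 other secreted regulators in each cow (blue MNEB, red SNEB) on a log axis, with group means as black lines. FGF21 and ANGPTL4 are higher and IGF1 and IGFALS lower in every SNEB cow than in every MNEB cow.

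No relative of the 3 families (of 14 listed), no receptor or binding partner (of 6), no plasma protein of hepatocytes (of 39) and no gene of the secretory pathway (of 46) could be named in the count data. These lists, and the 12 hepatocyte markers, were therefore not analysed here. Of markers of other cell types, only 2 of 10 for Kupffer cells and 2 of 8 for erythroid cells could be named. The Kupffer cell genes MARCO and TIMD4 had log2 fold changes of -0.64 (SE 0.38, edgeR adjusted p = 0.712) and -0.59 (SE 0.25, edgeR adjusted p = 0.532). Without SNEB3, TIMD4 passed the test, with a log2 fold change of -0.85 (edgeR adjusted p = 0.0792). SNEB3, the cow with the highest FNDC4 and ISM1 and the lowest FAM19A5 of its group, also had the highest TIMD4, 77.2 CPM, and MARCO, 178 CPM, of the SNEB cows. The part of these cells in the values of SNEB3 was not tested. The erythroid genes HBB and KEL were highest in MNEB2, with 49.9 and 60.8 CPM, and KEL was nearly as high in MNEB5, with 57.9 CPM. Neither passed the test between the groups (edgeR adjusted p = 0.314 and 0.711). The human counterpart named for the HBB row is another globin, HBD. MNEB2 was at neither end of the MNEB group for FNDC4, ISM1 or FAM19A5, whereas MNEB5 had the lowest FNDC4 and the highest ISM1 of that group. The part of erythroid cells in these values was not tested.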

How the data were processed

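Liver polyA RNA of 5 MNEB and 6 SNEB cows gave single-end reads on 19 lanes. With CASAVA 1.4, Bowtie, SAMtools and HTSeq, the authors mapped each lane to BCM4, kept uniquely mapped reads, 1 per position, and deposited raw counts per Ensembl gene. High counts are compressed by keeping 1 read per position.

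Lanes were summed per cow and cows grouped by label. edgeR 4.0.16 in R 4.3.3 (TMM, quasi-likelihood test, Benjamini-Hochberg adjustment, called under 0.1) was fitted to genes that reached 5 reads in any cow, and checked on simulated data. DESeq2 1.42.0 was an alternative, beside other scalings, filters, lanes, thinning, flow cell terms and left-out cows. SEs were derived from the fold change and the F statistic. Log2 CPM used a prior count of 2. Correlations used exact permutation tests (numpy 2.4.6).

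Gene names came from a supplementary list of the study with 413 genes, of which 390 had a name, used for names only. Members and lists were chosen with earlier results of these data known. Named were the members, called list genes, the 4 listed genes with the highest CPM, and the 5 most alike. A further 2 secreted regulators are not reported here and enter none of the counts of that list. GCKR was named after its values were seen. As a check for repeat deposits, mean chi-square over genes was computed between lanes. It ran from 0.775 to 6.90 for lanes of 1 cow and from 4.45 to 19.98 for lanes of different cows of 1 group. These ranges overlapped, so cows were counted as separate samples by their labels.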

Additional observations from a re-analysis of the deposited data

Results flagged for a closer look

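Highest and lowest cows were examined in 28 groups of values, 14 genes in both energy balance groups, by the gap to the nearest cow divided by the range of the group. Chance passes the limit, Dixon's 95% critical value, in about 1 of 20 groups, and 5 passed. None was a group of FNDC4, ISM1 or FAM19A5. SNEB3 stood apart for GCKR, at 16.1 CPM with a gap of 0.776 of the range, and for the Kupffer cell gene TIMD4, at 77.2 CPM with a gap of 0.637. SNEB2 stood apart for IGF1, at 20.03 CPM with a gap of 0.736. MNEB2 stood apart for IGFALS, at 386 CPM with a gap of 0.771, and for HBB, at 49.9 CPM with a gap of 0.980.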

How the results depend on the processing

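The log2 fold changes of FNDC4, ISM1 and FAM19A5 moved by less than 1 SD of the cows in every setting tried. Over the 10 planned settings other than left-out cows they lay between 1.76 and 1.82, 2.27 and 2.53, and 1.12 and 1.32. The counts of called genes moved more. DESeq2 called 176 higher and 114 lower, and without the cows of flow cell A, 19 and 15 were called, with fewer cows in the fit. In 1 simulated data set, DESeq2 made more false calls than edgeR and more than its threshold allows. That simulation gave genes of the same level the same dispersion, unlike these data. It therefore does not show how many of the calls here are false. With 1 cow left out, between 23 and 79 genes were called higher and between 17 and 46 lower. Of the 6 secreted regulators, 1 was called higher and 1 lower without flow cell A, and 1 lower with library totals as the only scaling. With 1 cow left out, 1 to 2 were called higher and 1 to 2 lower. At the level used for correlations, an adjusted p under 0.05, that of ISM1 with FAM19A5 passed with the first lane of each cow (r = -0.94) and without SNEB6. The correlation of FNDC4 with ISM1 without SNEB4 stood at that level and did not pass. With 1 SNEB cow left out, added after the data were seen, r of ISM1 with FAM19A5 lay between -0.98 and -0.66. The cause was not tested.

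With the cow number as a block, which drops SNEB6, 49 genes were called higher and 34 lower, and the folds were 1.77, 2.27 and 1.17 on the log2 scale for FNDC4, ISM1 and FAM19A5. Same-numbered cows shared flow cells, and what else the number marks is not given in the sources used here. Their deviations correlated at between -0.08 and 0.39, and only MNEB3 correlated best with its own number. Of the calls of the members, GCKR and the secreted regulators, only that of FAM19A5 was lost in this fit. Calls of the members are no test of them, since this contrast chose them. That of FAM19A5 was also lost without SNEB6 alone (log2 fold change 1.15), so the block and the dropped cow cannot be told apart.

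Depth limits the genes with few reads, as few as 17 in a cow for ISM1 and FAM19A5 and 1 for GCKR. Lists without a named gene had no alternatives.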
